A study of Homo sapiens with 8 samples.

Results

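The genes described here encode the enzymes that add methyl groups to histone lysines or remove them, together with their closest relatives. Members were the rows of the count table whose symbols begin with KDM, KMT2, KMT5, SETD or PRDM as the family names require, plus 12 named methyltransferases such as EHMT1, NSD1 and DOT1L. In all, 58 rows matched, 3 of them antisense or pseudogene rows (KDM4A-AS1, KMT2E-AS1 and SETD8P1) that were left out, and 55 members remained of 15982 genes in the table. They comprise 17 KDM demethylase genes, 10 PRDM genes and 28 methyltransferase or other SET and SMYD genes. Classes below follow the lysine each gene is best known for, and enzymatic activity was not measured. EHMT2, which the rule also names, has no row in the table.

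Total RNA was sequenced from the osteosarcoma line 143BTK-, whose cells are human and deficient in thymidine kinase. Both groups grew without glucose in 10 mM galactose and 5% dialysed serum, and both received 80 pmol of a synthetic RNA duplex with Lipofectamine at the start and again at 48 h, before harvest at 120 h. In 1 group the duplex was a mimic of hsa-miR-101-3p and in the other the negative control mimic, with 4 libraries each from transfections that the labels call independent. A single cell line was used, and the level of the transfected microRNA is not measured by these counts. In bulk RNA, fewer cells of a type and less RNA per cell cannot be told apart.

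Methylation of histone lysines marks chromatin states. Methyl groups on lysine 4 of histone H3 (H3K4) are found at promoters and enhancers, and those on H3K36 and H3K79 within transcribed genes. Those on H3K9, and the trimethylated form of H4K20, are found largely in silent chromatin. Most methyltransferases carry a SET domain, DOT1L being the exception with a different fold, and the demethylases are either flavin-dependent (KDM1A and KDM1B) or use iron and 2-oxoglutarate (the Jumonji KDM enzymes). The PRDM proteins have a SET-like PR domain and zinc fingers, and many act as sequence-specific transcription factors with no known enzymatic activity. A microRNA such as miR-101-3p lowers mRNAs whose 3' untranslated region (UTR) pairs with its seed, bases 2 to 8, and EZH2, the H3K27 methyltransferase, is a described target of miR-101.

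The sequences below show the seed of the mimic and some of the matches found in member mRNAs, with the matched bases in capitals. The mature sequence is that of RefSeq (GRCh38.p14, chr9:4850345-4850365, plus strand), and the mRNA stretches are read 5′ to 3′ from the longest 3' UTR of each gene in GENCODE 29 (GRCh38).
hsa-miR-101-3p: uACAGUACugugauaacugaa
NSD1, 8mer, chr5:177300139-177300168, plus strand: cccataaacatGTACTGTAattctttgtat
KDM3B, 8mer, chr5:138436849-138436878, plus strand: tctctccagctGTACTGTAgtgccctgcag
KDM3B, 7mer-m8, chr5:138435873-138435901, plus strand: acaggaaagtcGTACTGTtcacacacaca
KDM6B, 8mer, chr17:7854356-7854385, plus strand: gagcaactcctGTACTGTAggggaagaagt
DOT1L, 7mer-m8, chr19:2229958-2229986, plus strand: tggtccagtttGTACTGTcgatagtttta
KDM5B, 7mer-m8, chr1:202729050-202729078, minus strand: ctgtgtgcgctGTACTGTgaaggacgcac
KDM5A, 7mer-m8, chr12:283596-283624, minus strand: agaagtgaaatGTACTGTccagttacagt
An 8mer match (GTACTGTA) pairs with the whole seed and has an A opposite base 1 of the microRNA, a 7mer-m8 match (GTACTGT) lacks that A, and a 7mer-A1 match (TACTGTA) lacks the pair at base 8. Each gene is put in the class of its strongest match on the mRNA strand. NSD1, KDM3B and KDM6B are the 3 members with an 8mer, and KDM5A is shown because its level hardly differed between groups. The 7mer-m8 matches of KDM7A, KMT2A, KMT5B and SETD5 and all 7mer-A1 matches are not shown, so the stretches are a selection. A match is a description of the letters, not evidence of a working site.

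Library totals ran from 17603054 to 20160267 counts, and levels are given as CPM, the counts scaled to a common library size with TMM factors. Replicates 1 and 2 of each group lay closer together than any other 2 libraries of that group: the chi-square per degree of freedom over genes, which is near 1 for pure counting noise, was 3.82 for miR-101 and 4.73 for control replicates 1 and 2, against 14.5 to 70.9 for the other library pairs of the same group. Whether replicates 1 and 2 stem from separate experiments cannot be settled from the counts, so results are also given with their counts summed to 1 sample per group and in replicates 3 and 4 alone. Of the mesenchymal markers listed for the line, 6 of 7 had a row in the table (COL1A2 had none), with VIM at 476.0 to 899.5 CPM. The 6 genes did not share a direction: RUNX2, a bone transcription factor, rose by 0.93 on the log2 scale (edgeR adjusted p = 0.0269), while COL1A1 (1.10), SPARC (0.74), S100A4 (-0.02), VIM (-0.20) and FN1 (-0.27) had edgeR adjusted p from 0.0619 to 0.977. None of 4 leukocyte markers and 1 of 2 endothelial markers had a row. Of 4 epithelial markers 3 had one, summing to 359.6 to 625.1 CPM with the miR-101 mimic and 288.5 to 375.1 CPM in the control, with CDH1 without a row, and the part of these markers in the results below was not tested. KRT8, an epithelial keratin, rose by 0.93 on the log2 scale (edgeR adjusted p = 0.0114). TK1 mRNA was read at 12.4 to 18.1 CPM, which says nothing of the enzyme.

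With the mimic, NSD1, a methyltransferase of H3K36, fell 1.53-fold and PRDM8, a transcriptional repressor studied in nerve and retina, fell 1.66-fold. No other member passed the test of edgeR (quasi-likelihood F test, Benjamini-Hochberg adjusted p under 0.05 over all genes), and no member rose. The 2 members that fell are 3.7% of the 54 tested, and over all 15905 tested genes 3.32% were called lower and 3.3% higher (6.62% in all), so the share of members called lower is close to that of all genes. At an unadjusted p under 0.05 edgeR had 8 members lower and 3 higher of 54, where 10.9% and 11.4% of all tested genes were. The groups did not overlap for 5 members that were lower (9.26%) and 1 that was higher (1.85%), against 7.34% and 7.76% of all tested genes (15.1% in either direction). The direction was uneven: 42 of 54 members (77.8%) had a negative log2 fold change (miR-101 over control), with a median of -0.15, while 50.7% of all tested genes did, with a median of -0.005. Most of these differences are smaller than 2 standard errors and are not calls. Across the 18 alternative fits the number of members with a negative value ran from 38 to 46.

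**Figure D1:**
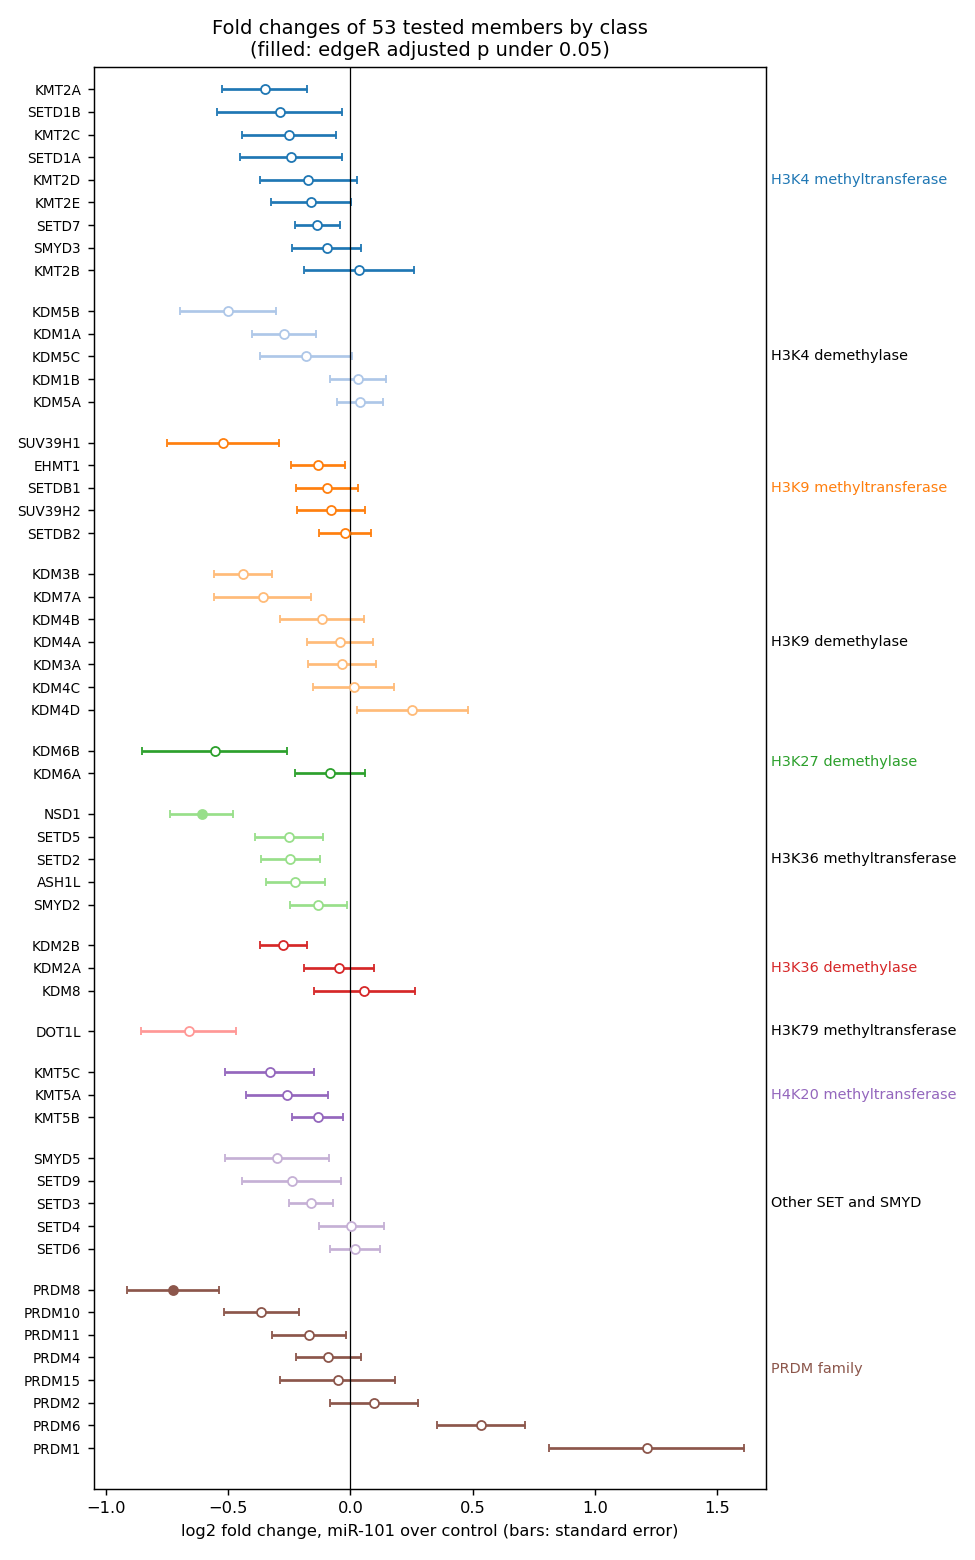
Log2 fold change (miR-101 over control, x axis) of 53 of the 54 tested members, grouped by the lysine each enzyme is best known for, with the standard error as bars; filled points passed edgeR's test. NSD1 and PRDM8 are the 2 filled points, and 42 points lie left of 0.

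NSD1 (chr5:177133025-177300215) places methyl groups on H3K36 and is the gene mutated in Sotos overgrowth syndrome. It stood at 81.9, 82.0, 71.5 and 60.1 CPM in miR-101 replicates 1 to 4 and at 108.0, 119.7, 96.0 and 126.9 CPM in the controls. Every miR-101 library was below every control library. Mean levels were 73.9 ± 10.4 and 112.6 ± 13.5 CPM (SD, n = 4 per group). The fitted log2 fold change was -0.61 ± 0.13 (SE), and edgeR's adjusted p was 0.02. The call was lost without miR-101 replicate 3 or control replicate 2 (edgeR adjusted p = 0.0584 and 0.064), and with total counts in place of TMM factors (0.0547). With replicates 1 and 2 summed the log2 fold change was -0.66 (adjusted p = 0.108), and in replicates 3 and 4 alone -0.76 (adjusted p = 0.395). Its 8mer match lies at base 4691 of a 3' UTR of 4756 bases, with a 7mer-A1 match at base 4724. Exons of NSD1 overlap the gene PRMT1P1 on the other strand, and since the strand setting of the counts is unknown, reads there are uncertain.

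The other H3K36 methyltransferases had negative values that did not pass the test. SETD2, the enzyme that adds the third methyl group behind RNA polymerase II, had a log2 fold change of -0.25 ± 0.12, ASH1L one of -0.23 ± 0.12, SETD5 one of -0.25 ± 0.14 and SMYD2 one of -0.13 ± 0.12, with edgeR adjusted p from 0.264 to 0.544. All 5 genes of this class were below 0. NSD2 and NSD3, the paralogs of NSD1 that the table lists as WHSC1 and WHSC1L1 and the rule does not take, stood at -0.07 ± 0.13 and -0.09 ± 0.088 (edgeR adjusted p = 0.783 and 0.61). Both have a 7mer-A1 match only. Whether NSD1 differs from its paralogs was not tested. Among the H3K36 demethylases, KDM2B, which binds unmethylated CpG islands and brings Polycomb complexes to them, stood at 26.99, 26.8, 29.96 and 29.4 CPM with the miR-101 mimic and 35.5, 32.6, 33.0 and 35.8 CPM in the control. Its groups did not overlap, but its log2 fold change of -0.27 ± 0.097 had an edgeR adjusted p of 0.125, and its exons overlap RNF34. KDM2A and KDM8 lay at -0.05 ± 0.14 and 0.06 ± 0.21.

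PRDM8 (chr4:80183879-80204329) was read at 97 to 248 counts per library. It stood at 7.51, 7.55, 10.1 and 5.26 CPM with the miR-101 mimic and 12.5, 11.6, 14.5 and 11.9 CPM in the control. The highest miR-101 library, replicate 3, was below the lowest control, replicate 2. Its log2 fold change was -0.73 ± 0.19 (edgeR adjusted p = 0.044). PRDM8 stayed below the threshold when miR-101 replicate 3 or control replicate 4 was left out, but not when any other library was (edgeR adjusted p from 0.0697 to 0.119), nor with total counts in place of TMM factors (0.0643). With replicates 1 and 2 summed its adjusted p was 0.212, while replicates 3 and 4 alone gave 0.668 and a log2 fold change of -0.77. Its longest 3' UTR holds no match for the seed.

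The PRDM genes ran from -0.73 (PRDM8) to 1.21 (PRDM1), with 5 of 9 tested members below 0 and a median of -0.05. PRDM1, the repressor Blimp-1 of plasma cell differentiation, was low in both groups, at 44 to 97 counts per library with miR-101 and 11 to 47 in the control. In CPM it stood at 3.86, 3.65, 4.75 and 2.38 against 1.70, 1.31, 2.92 and 0.526. The groups overlapped through miR-101 replicate 4 and control replicate 3. Each of the 4 same-numbered pairs was higher with miR-101, though some libraries with different numbers correlated as much as same-numbered ones. Its log2 fold change of 1.21 ± 0.40 was the largest of the members and had an edgeR adjusted p of 0.10. With the replicate block this was 0.0152, by DESeq2 0.0369, and without control replicate 3 0.0281. Leaving out another library gave adjusted p up to 0.225, summing replicates 1 and 2 gave 0.331, and replicates 3 and 4 alone gave 0.792. The longest 3' UTR of PRDM1 holds 1 match, a 7mer-A1. PRDM6, a repressor of smooth muscle, stood at 0.53 ± 0.18 (edgeR adjusted p = 0.11) and PRDM10 at -0.36 ± 0.15 (0.187). PRDM2, PRDM4, PRDM11 and PRDM15 lay between -0.17 and 0.10. PRDM16, a regulator of brown fat, had 3 to 19 counts per library and was the 1 member under the filter on low counts.

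**Figure D2:**
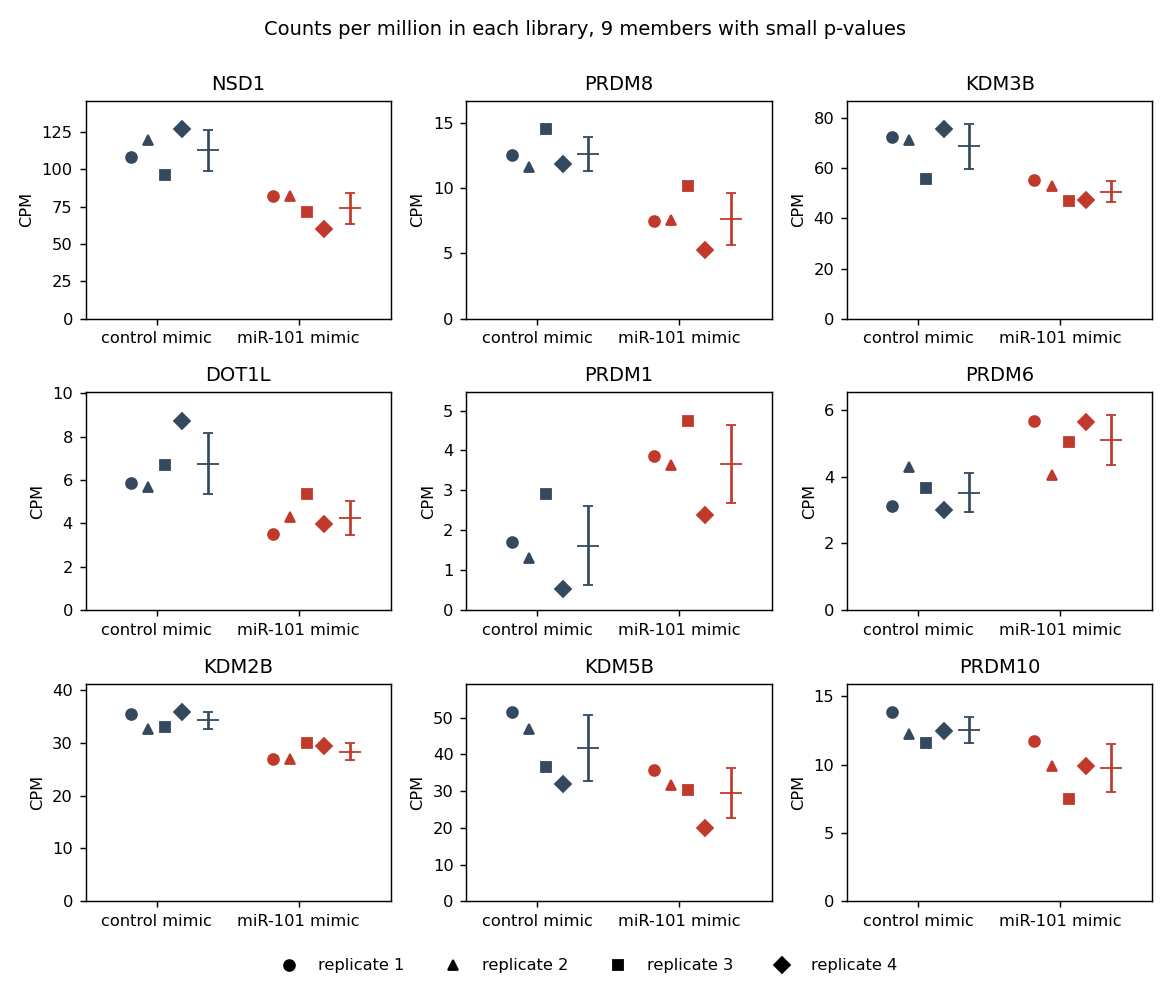
CPM (y axis, from 0) of 9 members with small p-values in each of the 8 libraries; symbols mark the replicate number, and the bar at the right of each group is mean and SD (n = 4). The miR-101 libraries of NSD1, PRDM8, KDM3B, DOT1L and KDM2B lie below all controls, while the groups of PRDM1, PRDM6, KDM5B and PRDM10 overlap.

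KDM3B (chr5:138352596-138437028), which removes methyl groups from H3K9, missed the threshold narrowly. It stood at 55.4, 53.0, 47.1 and 47.2 CPM with the miR-101 mimic and 72.6, 71.4, 55.6 and 75.6 CPM in the control. The groups did not overlap, with control replicate 3 just above miR-101 replicate 1. The log2 fold change was -0.44 ± 0.12 with an edgeR adjusted p of 0.0519. The adjusted p was 0.0318 with the replicate block, 0.0128 by DESeq2 and 0.013 without control replicate 3. It was 0.114 with total counts, 0.0688 to 0.132 without any 1 of the other 7 libraries, 0.231 with replicates 1 and 2 summed and 0.707 in replicates 3 and 4 alone. Its paralog KDM3A stood at -0.03 ± 0.14 (edgeR adjusted p = 0.919). KDM3A has only a 7mer-A1 match, and KDM3B an 8mer and a 7mer-m8. The difference between these paralogs was not tested.

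Of the other H3K9 demethylases, KDM7A, which also acts on H3K27, had 2 7mer-m8 and 2 7mer-A1 matches and a log2 fold change of -0.36 ± 0.20 (edgeR adjusted p = 0.322). KDM4A, KDM4B, KDM4C and KDM4D ran from -0.12 to 0.25. KDM4B differed in sign between the replicate pairs, at -0.43 in replicates 1 and 2 and 0.19 in replicates 3 and 4. The H3K9 methyltransferases had small values except SUV39H1, an enzyme of constitutive heterochromatin, with 4.24 ± 0.499 CPM under the mimic and 6.08 ± 2.14 CPM in the control. Its log2 fold change was -0.52 ± 0.23 (edgeR adjusted p = 0.209). Control replicate 4 stood at 9.27 CPM and the other controls at 4.67 to 5.28, and without that library the log2 fold change was -0.24. SUV39H2, SETDB1, SETDB2 and EHMT1 lay between -0.13 and -0.02.

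DOT1L (chr19:2164149-2232578), the methyltransferase of H3K79, was read at 65 to 109 counts per library with miR-101 and 107 to 183 in the control. It stood at 3.49, 4.30, 5.34 and 3.95 CPM against 5.88, 5.69, 6.70 and 8.75 CPM. Each miR-101 library was below each control library. The log2 fold change was -0.66 ± 0.19 with an edgeR adjusted p of 0.0694, and DESeq2 called it (0.024). With replicates 1 and 2 summed the adjusted p was 0.227, and 0.604 in replicates 3 and 4 alone. Exons of PLEKHJ1 overlap it on the other strand, so that its reads are uncertain there.

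Among the H3K4 demethylases, KDM5B stood at 35.8, 31.8, 30.4 and 19.99 CPM with the miR-101 mimic and 51.6, 46.9, 36.7 and 32.0 CPM in the control. Replicate by replicate miR-101 was lower in 4 of 4 pairs, though some libraries with different numbers correlated as much as same-numbered ones. The groups overlapped because control replicate 4 lay below miR-101 replicate 1. The log2 fold change of -0.50 ± 0.20 had an edgeR adjusted p of 0.16, and 0.0196 with the replicate block. Summing replicates 1 and 2 gave 0.39, and replicates 3 and 4 alone 0.789. KDM5B has 1 match, a 7mer-m8. Its close relative KDM5A has 3, a 7mer-m8 at base 1843 of its 3' UTR and 7mer-A1 matches at bases 1985 and 3969. KDM5A averaged 96.9 ± 5.52 CPM with the miR-101 mimic and 94.3 ± 6.47 CPM without. Its log2 fold change was 0.04 ± 0.095 (edgeR adjusted p = 0.851), and its exons overlap CCDC77. KDM5C, KDM1A (also called LSD1) and KDM1B had log2 fold changes of -0.18 ± 0.19, -0.27 ± 0.13 and 0.03 ± 0.12, and no gene of this class passed the test by edgeR, DESeq2 or limma-voom, KDM5B being the 1 with an unadjusted p under 0.05 in edgeR.

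The H3K4 methyltransferases had negative values in 8 of 9 genes, none of which passed the test by edgeR, DESeq2 or limma-voom or had an unadjusted p under 0.05 in edgeR. The lowest was KMT2A, known as MLL, at -0.35 ± 0.17 (edgeR adjusted p = 0.262). Its control replicate 3 stood at 131.0 CPM and the other controls at 77.2 to 85.8, and without that library the log2 fold change was -0.16. KMT2C, KMT2D and KMT2E stood at -0.25 ± 0.19, -0.17 ± 0.20 and -0.16 ± 0.16, SETD1A and SETD1B at -0.24 ± 0.21 and -0.29 ± 0.26, SETD7 at -0.14 ± 0.09, SMYD3 at -0.10 ± 0.14 and KMT2B at 0.04 ± 0.23. Single libraries moved most of these values: with 1 library left out KMT2C ran from -0.39 to -0.04, KMT2D from -0.35 to -0.07, KMT2E from -0.30 to -0.02, SETD1A from -0.38 to -0.07, SETD1B from -0.44 to -0.16, SMYD3 from -0.17 to -0.01 and KMT2B from -0.10 to 0.29. The values nearest 0 for KMT2C, KMT2E and SETD1B were those without control replicate 3, for KMT2D without miR-101 replicate 2, for SETD1A without control replicate 4 and for SMYD3 without control replicate 1. The H4K20 enzymes KMT5A, KMT5B and KMT5C had values of -0.26 ± 0.17, -0.13 ± 0.10 and -0.33 ± 0.18. SETD8P1, a pseudogene copy of KMT5A, has its own row, so reads of KMT5A could be shared with it.

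The H3K27 demethylases were KDM6A (UTX) and KDM6B (JMJD3). KDM6A, on the X chromosome, averaged 31.2 ± 4.76 CPM with the miR-101 mimic and 33.0 ± 4.15 CPM in the control, and its log2 fold change was -0.08 ± 0.14. KDM6B was near the low end of the members, at 10 to 26 counts per library with miR-101 and 24 to 33 in the control. Its log2 fold change of -0.56 ± 0.30 (edgeR adjusted p = 0.305) came to -0.19 when fitted on replicates 1 and 2 and to -1.04 on replicates 3 and 4. The other SET and SMYD proteins formed a class without an assigned lysine. Of these, SETD3, the actin histidine methyltransferase, stood at -0.16 ± 0.09 and SETD6, which modifies the NF-kB subunit RELA, at 0.02 ± 0.10. SETD4, SETD9 and SMYD5 lay between -0.30 and 0.004. SMYD5 was the lowest of them, with control replicate 4 at 38.4 CPM and the other controls at 17.9 to 21.7. With 1 library left out its log2 fold change ran from -0.431 to -0.009.

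The median fold change was lower among members with an 8mer or 7mer-m8 match than among those without a match. Of the 10 such members (KDM3B, KDM5A, KDM5B, KDM6B, KDM7A, KMT2A, KMT5B, NSD1, DOT1L and SETD5), 9 had a negative log2 fold change, with a median of -0.40, and 1 (NSD1) was called. Over all 1589 tested genes with such a match 66.8% were negative, the median was -0.14 and 13.3% were called lower. Of 5 tested members with a 7mer-A1 at most, 4 were negative, with a median of -0.08, and PRDM1 was the highest at 1.21. Over all 1370 tested genes of that class 49.6% were negative, with a median of 0.003. The 39 members without any match had 29 negative values and a median of -0.13, against 51.9% negative and a median of -0.01 over 9484 tested genes of that class. The 8mer or 7mer-m8 class held 18.5% of the members and 12.8% of the tested genes with a 3' UTR. Median UTR length differed along with it, at 3742 bases for members with such a match and 1442 for those without any. These are counts and medians with no test of the members as a list.

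**Figure D3:**
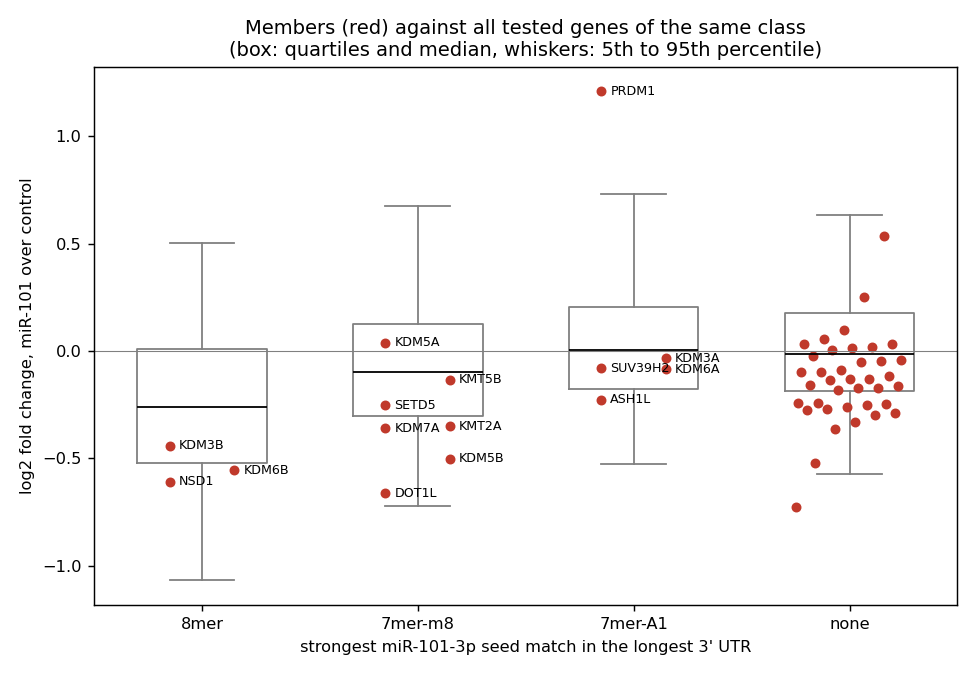
Log2 fold change (y axis) of 53 tested members (red points) by the strongest miR-101-3p seed match in the longest 3' UTR (x axis), over boxes of all tested genes of that class. The 3 members with an 8mer lie below the median of their class (-0.26), and KDM5A is the 1 of 7 members with a 7mer-m8 above 0.

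Replicate pairs were compared because replicates 1 and 2 lie so close. Of 54 members, 39 (72.2%) had the same sign in replicates 1 and 2 as in replicates 3 and 4, which do not share libraries, and 73.8% of all genes did. The members had a median of -0.14 in the first pair of replicates and -0.18 in the other pair, against 0.004 and -0.016 for all genes. In replicates 1 and 2 alone edgeR called 14 members lower and 2 higher, where 16.4% and 16% of all genes (32.4% together) were called. In replicates 3 and 4 alone it called none, where 0% and 0.0379% were called. With the replicate number as a block, which removes differences shared by same-numbered libraries, 4 members were called lower (NSD1, PRDM8, KDM3B and KDM5B) and 2 higher, PRDM1 among them, against 4.99% and 5.55% of all genes. DESeq2 called DOT1L, KDM3B, NSD1 and PRDM8 lower and 2 members higher, PRDM1 among them, against 5.46% and 5.27%. Limma-voom called NSD1 and PRDM8 lower and 1 member higher, against 3.19% and 3.46% (6.66% together).

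**Figure D4:**
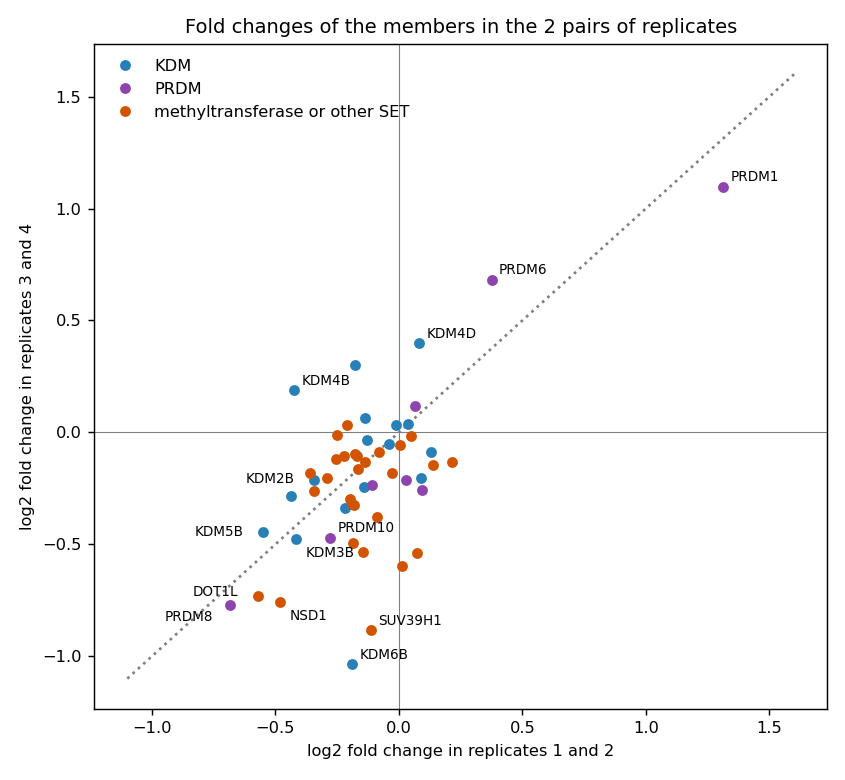
Log2 fold change of 53 tested members in replicates 1 and 2 (x axis) and in replicates 3 and 4 (y axis), with the line of equality dotted. PRDM1 and PRDM6 lie at the upper right, NSD1, PRDM8, DOT1L, KDM3B and KDM5B at the lower left, and KDM6B and SUV39H1 lie lower on the y axis (-1.04 and -0.89) than on the x axis (-0.19 and -0.11).

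Levels between genes were compared as CPM per kilobase of the longest coding transcript. In the control the highest were SETD3 at 44.7 ± 3.08, SMYD2 at 41.0 ± 5.47 and KDM1A at 29.6 ± 5.06 CPM per kb, and the lowest KDM6B at 0.231 ± 0.0555 and PRDM16 at 0.0442 ± 0.0194 CPM per kb (SD, n = 4). SETDB1 (18.3) was the highest H3K9 methyltransferase, KDM3A (17.8) the highest H3K9 demethylase and SETD7 (17.4) the highest H3K4 methyltransferase. KDM2A (9.58) led the H3K36 demethylases, KMT5A (9.96) the H4K20 enzymes, PRDM4 (10.3) the PRDM genes and KDM6A (5.58) the H3K27 demethylases. Neighbours in this order overlapped between the libraries in 50 of 54 cases. The 4 steps without overlap were those below KDM1A, below SETD7, below DOT1L and below KDM6B. NSD1 stood at 8.74 ± 1.05 in the control and 5.73 with miR-101. The large KMT2 genes were low per length, from 0.373 (KMT2B) to 5.69 (KMT2A) CPM per kb.

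**Figure D5:**
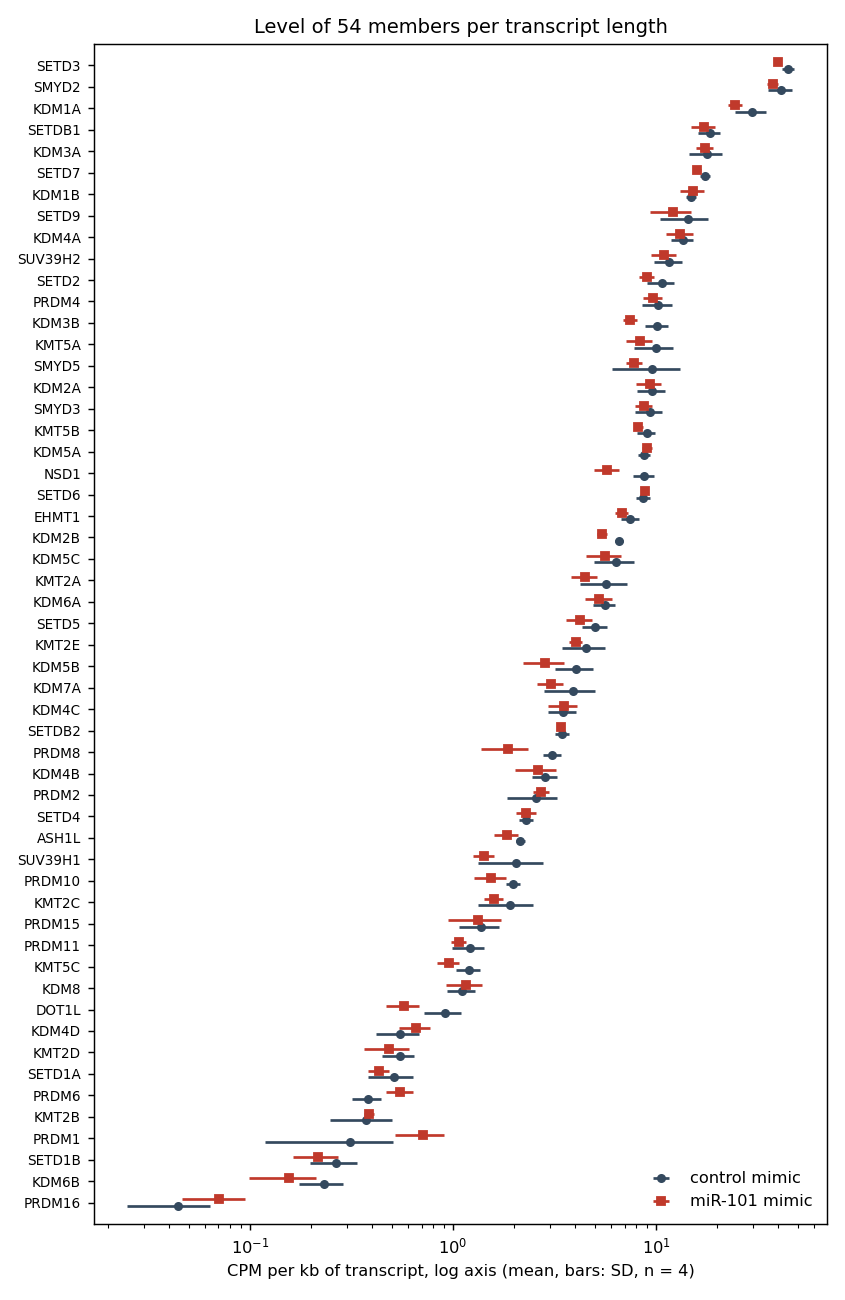
Level of 54 of the 55 members in CPM per kilobase of transcript (log x axis), mean and SD of 4 libraries, in the control (dark circles) and with miR-101 (red squares), ordered by the control. SETD3, SMYD2 and KDM1A are at the top and PRDM16 at the bottom, and for most genes the 2 groups lie within the spread of their libraries.

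Spread between libraries was uneven. The coefficient of variation of a member had a median of 15.9% in the control and 13.4% with miR-101, and was smallest in the control for KDM2B (4.82%) and largest for PRDM1 (61.8%). In the control, 18 of 54 members had their highest value in replicate 3 and 18 in replicate 4, and 19 and 22 had their lowest there, so that these libraries held most extremes. With miR-101, replicate 4 held the lowest value of 29 members and the highest of 4. All members together took 0.153 to 0.192% of the counts with miR-101 and 0.187 to 0.209% in the control, ranges that overlap.

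Partner proteins, and related enzymes that the rule does not take, were read from 5 lists and are all called partner genes here. Of these lists 64 genes had a row and were tested. Among them 3 (4.69%) fell by edgeR, against 3.32% of all tested genes, and none rose, against 3.3%. EZH2 and JMJD1C came from the list of 14 related enzymes, and CDYL from that of H3K9 partners and readers. No partner gene was higher at an unadjusted p under 0.05 in edgeR or called higher by DESeq2 or limma-voom. A negative log2 fold change was found for 41 partners (64.1%, median -0.08) and for 50.7% of all tested genes. EZH2 stood at 25.9, 26.7, 30.3 and 29.3 CPM with the miR-101 mimic and 46.0, 46.7, 51.3 and 38.9 CPM in the control, and its log2 fold change was -0.70 ± 0.11 (edgeR adjusted p = 0.00561). CDYL, a chromodomain protein that binds methylated H3K9 and has an 8mer match, stood at 28.6, 29.9, 33.7 and 31.5 CPM with the miR-101 mimic and at 48.5, 46.3, 44.8 and 48.9 CPM in the control. Its log2 fold change was -0.61 ± 0.097 (edgeR adjusted p = 0.00521). Each miR-101 library was below each control in both genes, and both kept the call in 8 of 8 fits that left out 1 library, but not with replicates 1 and 2 summed (edgeR adjusted p = 0.0809 for each). JMJD1C, a relative of KDM3B without a seed match, fell by 0.48 ± 0.11 on the log2 scale (edgeR adjusted p = 0.03). It kept the call in 4 of 8 such fits, not when miR-101 replicate 1, 2, 4 or control replicate 2 was dropped (adjusted p up to 0.106), and lost it with replicates 1 and 2 summed (0.158). JMJD1C overlaps an antisense gene.

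The listed subunits of COMPASS complexes, in which KMT2 and SETD1 enzymes act, had no call with all libraries in. Of 14 genes none was called by edgeR, DESeq2 or limma-voom and none had an unadjusted p under 0.05 in edgeR. The nearest was WDR82 at 0.18 ± 0.091 (edgeR adjusted p = 0.282). WDR5 was called higher without control replicate 4 (edgeR adjusted p = 0.00975), and in no other fit that left out 1 library. That control stood at 51.2 CPM and the other controls at 29.2 to 33.2 CPM. The 11 partners of DOT1L and of H3K36 methylation had no call either by any of the 3 tools, nor an unadjusted p under 0.05 in edgeR, BRPF1 being the nearest (-0.27 ± 0.14, edgeR adjusted p = 0.274). Of 11 genes of the KDM1A complex CoREST, 8 had a negative value (median -0.19) and none was called by edgeR or limma-voom. The deacetylase HDAC1 of that complex was nearest, with a log2 fold change of -0.29 ± 0.093 (edgeR adjusted p = 0.0922) and groups that did not overlap, and the list had 1 gene at an unadjusted p under 0.05 and 1 called by DESeq2. ZMYM2 of this list was called lower without control replicate 4 (edgeR adjusted p = 0.0202), and in no other fit that left out 1 library. Of 14 partners and readers of H3K9 methylation, CDYL was the 1 called, with 7 values below 0.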

How the data were processed

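RNA of 8 cultures was sequenced after ribosomal RNA removal (Ribo-zero Gold), per the labels' protocols. The authors deposited whole-number read counts per gene symbol, not normalised. The genome build was hg38, and the tools named were TopHat2 2.0.14, StringTie 1.2.4 and bcl2fastq 2.18.0.12, per the submitters' processing notes. The counting tool, annotation and strand setting were not given in the sources used here, so overlapping genes are uncertain. Library totals were 17603054 to 20160267. The members and gene lists were chosen with earlier results of these data known.

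The group comparison used edgeR 4.0.16 under R 4.3.3 (filterByExpr, TMM, glmQLFit, glmQLFTest, group as the only term), which left 15905 genes. Adjusted p-values are Benjamini-Hochberg over all of them. Standard errors are the log2 fold change divided by the root of F. CPM use TMM library sizes. Alternatives were DESeq2 1.42.0, limma-voom (limma 3.58.1), other scalings and filters, the replicate block, replicates 1 and 2 summed or each replicate pair alone, and leaving out each library. The count of members with a negative value across fits was added after seeing the data.

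Same-numbered libraries deviated together from their group means (correlations over genes 0.328, 0.426, 0.185 and 0.209), and the numbers were taken to pair the libraries because each exceeded 0.1. Some libraries with different numbers correlated as much: miR-101 replicate 4 with control replicate 3 at 0.391, 2 with 1 at 0.374 and 1 with 2 at 0.372. The pairing thus rests on a threshold and is not specific to the numbers. The blocked value is given where it changed a call.

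Seed matches were searched on the mRNA strand of the longest 3' UTR of protein-coding transcripts in GENCODE 29 (GRCh38). Of the symbols, 14077 matched by name and 319 by an older name from RefSeq, and all 55 members had a 3' UTR. The values of 1 member are not reported here, though it is kept in the counts and medians. Named were called members, the 10 next by p, the highest per kb in each class, those with an 8mer or 7mer-m8, and of each partner list the called genes and the smallest p. Others were named to complete classes, after their values were seen. MLLT6, PHF1, SMYD1 and UTY of these lists had no row.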

Additional observations from a re-analysis of the deposited data

Results flagged for a closer look

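In 10 of 106 groups of 4 libraries (53 members in 2 groups), 1 library lay far from the other 3 by Dixon's ratio, which chance gives in about 1 of 20 groups. In the control, replicate 3 was high for KMT2A (131.0 CPM, the nearest library at 85.8) and SETD5 (41.7, nearest 32.0) and low for SETDB1 (66.8, nearest 86.1) and PRDM15 (6.14, nearest 10.1). Control replicate 4 was high for SUV39H1 (9.27 CPM, nearest 5.28) and low for KDM5A (84.7, nearest 96.6). With miR-101, replicate 4 was low for KDM6A (24.1 CPM, nearest 33.0) and KMT2B (2.98, nearest 3.33) and high for SETD9 (26.2, nearest 18.3). Replicate 3 was high for KDM4B with miR-101 (20.02 CPM, nearest 13.7). All 10 are libraries of replicates 3 and 4, and replicates 1 and 2 lie close together in both groups.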

How the results depend on the processing

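The number of members called lower was 2 in edgeR, 4 by DESeq2 and with the replicate block, 0 with total counts without TMM, 0 with replicates 1 and 2 summed, 0 in replicates 3 and 4 only and 14 in replicates 1 and 2 only, and ran from 0 to 2 when 1 library was left out. Members called higher numbered 0, against 2 by DESeq2, with the replicate block and in replicates 1 and 2 only, 1 by limma-voom and with total counts, and 0 to 2 with 1 library left out (2 without control replicate 3). All genes called numbered 1053, against 1706 by DESeq2, 1676 with the replicate block, 173 with replicates 1 and 2 summed, 6 in replicates 3 and 4 only and 5126 in replicates 1 and 2 only, and ran from 488 (without miR-101 replicate 1) to 1419 (without control replicate 4) with 1 library left out. It was 489 and 684 without miR-101 replicates 2 and 3, and 615 and 564 without control replicates 1 and 2. Partner genes called numbered 3 of 64, against 0 with replicates 1 and 2 summed and in replicates 3 and 4 only. In replicates 1 and 2 only 18 of them were called, where 32.4% of all genes were. With 1 library left out 2 to 5 partner genes were called (5 without control replicate 4). NSD1 and PRDM8 had a negative value in every fit. With DESeq2's size factors, no filter or a filter of 1 CPM in 4 libraries the member counts were the same as in edgeR's own settings. The cause of these differences was not tested.

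No called value changed sign. Members that were not called did, none of them past the threshold in that fit. With replicates 1 and 2 summed KDM1B was -0.006, KMT2B -0.014 and SETD4 -0.042. In replicates 3 and 4 only KDM1B was -0.087, KDM3A 0.063, KDM4B 0.189, KMT2B -0.133, SETD4 -0.147, SETD6 -0.017 and SMYD3 0.032. In replicates 1 and 2 only KDM2A was 0.091, KDM4C -0.011, KDM8 -0.177, PRDM15 0.094, PRDM4 0.030, SETD1A 0.075, SETDB2 0.006 and SMYD5 0.013. With 1 library left out the ranges that crossed 0 were KDM1B -0.034 to 0.106, KDM2A -0.142 to 0.049, KDM3A -0.145 to 0.060, KDM4A -0.124 to 0.036, KDM4C -0.097 to 0.119, KDM5A -0.009 to 0.069, KDM6A -0.160 to 0.014, KDM8 -0.049 to 0.185, KMT2B -0.099 to 0.291, PRDM15 -0.225 to 0.099, PRDM2 -0.031 to 0.286, PRDM4 -0.164 to 0.029, SETD4 -0.066 to 0.046, SETD6 -0.028 to 0.056, SETDB2 -0.064 to 0.019 and SUV39H2 -0.186 to 0.020. Depth limits the low members: KDM6B, PRDM1, KDM8, KMT2B, SETD1B, KDM4D, KMT5C, SETD1A and PRDM16 had at most 98 counts in any library.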
